A study of Arabidopsis thaliana with 3 samples.

Results

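The loci described here lie in the pericentromeric heterochromatin of the 5 *Arabidopsis thaliana* chromosomes, the compact, repeat-rich DNA on either side of the centromeres. They were chosen by locus name and not by level. A locus was a member where its number fell between AT1G36000 and AT1G43999, AT2G09000 and AT2G13499, AT3G30000 and AT3G42499, AT4G05500 and AT4G08099, or AT5G28000 and AT5G36499. This gave 3052 of the 33559 loci in the deposited table, with 548, 466, 611, 479 and 948 loci on chromosomes 1 to 5. Poly(A) RNA was sequenced from whole seedlings of the *mms19-1* mutant, of the *abo4* mutant and of the wild type, Col, and each genotype has 1 library. All 3 were 14 days old, in the Col ecotype, and grown on MS agar under 16 h of light and 8 h of dark at 22°C after 3 days at 4°C. *mms19-1* is a T-DNA insertion line of *MMS19*, and *abo4* is a weak missense allele of the gene for the catalytic subunit of DNA polymerase ε, so the *abo4* plants still hold a working polymerase. With 1 library per genotype no difference below has a replicate check, no test between genotypes could be made, and every interval covers counting error only.

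Pericentromeric DNA is made mostly of transposable elements (TEs) and their remnants, and plants keep these elements silent through DNA methylation, methylation of histone H3 at lysine 9 and close packing of the nucleosomes. These marks have to be copied onto both daughter strands each time the DNA is replicated, so mutations in replicative DNA polymerases are known to release silencing. The paper proposes that MMS19 helps to load iron-sulfur clusters onto DNA polymerases. It measured iron on the catalytic subunit of polymerase α, while the cluster in that of polymerase ε was taken from work in yeast. The study asked whether the 2 proteins, which associate with each other, affect the same genes and TEs.

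The labels were checked first. *MMS19* (AT5G48120), which lies outside these windows, had 0.228 FPKM in the *mms19-1* library, 9.01 FPKM in *abo4* and 10.1 FPKM in Col, where FPKM stands for fragments per kilobase of transcript in a library scaled by its depth. *ABO4* (AT1G08260) had 6.95, 8.09 and 5.03 FPKM in *mms19-1*, *abo4* and Col, and a missense allele is not seen in a transcript level. The libraries held an estimated 51.4, 49.7 and 56.1 M reads, so the *mms19-1* and *abo4* libraries were 0.916 and 0.886 times as deep as that of Col. For a transcript of 1500 nt, 1 read was worth 0.0150, 0.0155 and 0.0138 FPKM in the 3 libraries, and levels below that cannot be seen. All 279 organellar genes of the table were at 0 in every library, so an exact 0 is reported below only as listed at 0.

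In the RefSeq annotation of TAIR10.1, 2179 of the 3052 loci (71.4%) were pseudogenes, the class under which that annotation places TE genes, against 1732 of 30228 loci (5.73%) on the rest of the chromosomes. The windows also held 611 protein-coding genes, 181 transcribed pseudogenes and 26 RNA genes, and 55 loci were not in the annotation. The windows spanned 3.28, 1.99, 2.88, 2.23 and 4.34 Mb on chromosomes 1 to 5, and AT3G36659 was the 1 member that lay apart from the others, on the arm of chromosome 3. Their content is thus that of TE-rich DNA, although a window set by locus numbers is not a map of histone marks.

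The study followed silencing by quantitative PCR at several of these loci, and the DNA that its primers delimit is shown here because these places carry the comparison between genotypes. The primers are in capitals and the bases between them in lower case, read 5′ to 3′ from the TAIR10.1 genome of RefSeq.
TSI in AT4G06578, chr4:3554167-3554295, plus strand: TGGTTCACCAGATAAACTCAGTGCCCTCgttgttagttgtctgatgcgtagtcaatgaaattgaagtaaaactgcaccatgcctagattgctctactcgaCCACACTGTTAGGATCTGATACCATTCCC
AT2G11780, chr2:4731504-4731624, plus strand: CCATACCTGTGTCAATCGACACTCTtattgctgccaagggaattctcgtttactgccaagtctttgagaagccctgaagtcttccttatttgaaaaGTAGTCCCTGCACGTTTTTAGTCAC
AT3G32195, chr3:13169722-13169905, plus strand: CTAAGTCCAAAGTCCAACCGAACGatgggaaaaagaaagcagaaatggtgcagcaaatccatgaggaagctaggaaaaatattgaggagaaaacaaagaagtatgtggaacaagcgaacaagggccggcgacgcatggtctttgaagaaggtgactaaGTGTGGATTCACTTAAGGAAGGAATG
AT4G06718, chr4:4018100-4018250, minus strand: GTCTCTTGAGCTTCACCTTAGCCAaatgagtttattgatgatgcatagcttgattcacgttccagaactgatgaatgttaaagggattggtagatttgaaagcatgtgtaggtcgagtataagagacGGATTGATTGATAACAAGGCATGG
The pairs for TSI (transcriptionally silent information, a repeat of the pericentromeres whose transcripts mark lost silencing), AT2G11780, AT3G32195 and AT4G06718 each gave 1 product in the genome without mismatch.

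These 4 loci, and the TE genes AT4G06615 and AT1G41680, had more reads in *mms19-1* and in *abo4* than in Col. The paper picked some TEs for quantitative PCR from those higher in both mutants in these same RNA data. Its text does not name them, so at some of these loci the higher level may follow from the choice. At AT2G11780, a TE gene without an assigned family, the 106 reads of *mms19-1* (0.669 FPKM) and the 89 reads of *abo4* (0.581 FPKM) stood against 4 in Col (0.0231 FPKM). Relative to depth the ratio to Col was 28.9 for *mms19-1*, with a 95% exact interval of 11 to 108. For *abo4* it was 25.1, with an interval of 9.48 to 94.2. At AT3G32195, a gypsy-like retrotransposon, there were 19 reads in *mms19-1* and 59 in *abo4*, against 1 read in Col, and the intervals of these ratios reach from 3.30 to 862 and from 11.5 to 2675. AT4G06718 had 20 reads in *mms19-1*, 32 in *abo4* and 1 in Col. AT4G06578, the Athila retrotransposon that holds the TSI product, had 10 reads in *mms19-1* and 14 in *abo4* and was listed at 0 in Col. AT4G06615 had 1.19, 1.44 and 0.0640 FPKM in *mms19-1*, *abo4* and Col, and AT1G41680 had 0.408, 0.583 and 0.0356 FPKM. Only 46.5% and 32.6% of the 45-base stretches of AT4G06615 and AT1G41680 occur once in the genome, so some of their reads could come from other copies. The treatment of multiply aligned reads is not given in the sources used here.

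Transcripts from the windows were found at more loci in the mutants than in Col, and most of the difference lay in the pseudogenes. Of the 2179 pseudogenes, 405 (18.6%, 95% Wilson interval 17.0 to 20.3%) had a value above 0 in *mms19-1*, 557 (25.6%, 23.8 to 27.4%) in *abo4* and 233 (10.7%, 9.46 to 12.1%) in Col. Of the 611 protein-coding genes, 324, 327 and 322 were above 0, which is 53.0%, 53.5% and 52.7%. On the chromosome arms, 419 (24.2%), 529 (30.5%) and 386 (22.3%) of 1732 pseudogenes were above 0. These shares are at the depth of each library, 0.916 and 0.886 times that of Col in *mms19-1* and *abo4*.

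By chromosome, the share of pseudogenes above 0 was higher in *mms19-1* than in Col, and higher in *abo4* than in *mms19-1*, in each of the 5 windows. The shares for *mms19-1* lay between 16.3% on chromosome 3 and 21.5% on chromosome 2, and those for *abo4* between 24.1% on chromosome 1 and 26.7% on chromosome 2. Those of Col lay between 7.37% on chromosome 3 and 16.6% on chromosome 2. In *mms19-1* the widest gap in share was on chromosome 4, with 20.8% in *mms19-1* against 9.52% in Col. In *abo4* the gaps were widest on chromosomes 3 and 4, with 24.3% and 26.3% in *abo4* against 7.37% and 9.52% in Col. Chromosome 2 stood closest to Col, with 74, 92 and 57 of 344 loci. The Wilson intervals of *mms19-1* and Col overlapped on chromosome 2 (17.5 to 26.2% against 13.0 to 20.9%) and, at their ends, on chromosome 1 (13.1 to 20.5% against 7.33 to 13.4%). Those of *abo4* and *mms19-1* overlapped on chromosomes 1, 2 and 4. For *abo4* they were 20.1 to 28.6%, 22.3 to 31.7% and 22.2 to 30.8%, and on chromosome 4 that of *mms19-1* was 17.1 to 25.1%. Counted over all classes, 139, 120, 120, 117 and 286 loci on chromosomes 1 to 5 were above 0 in *mms19-1*, 173, 144, 164, 136 and 340 in *abo4*, and 119, 108, 80, 70 and 240 in Col. These left 2270 members listed at 0 in *mms19-1*, 2095 in *abo4* and 2435 in Col, of which 1903 were at 0 in all 3.

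**Figure D1:**
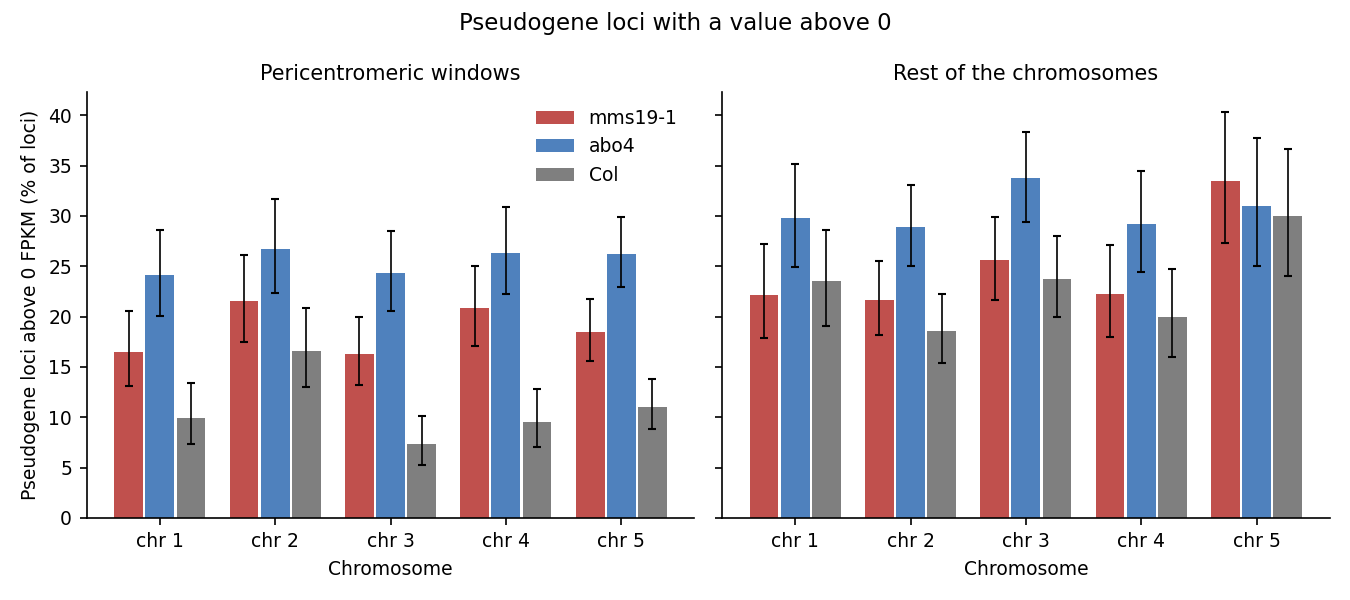
Share of annotated pseudogene loci with a value above 0 FPKM (y axis, %) by chromosome (x axis) in *mms19-1*, *abo4* and Col, in the pericentromeric windows and on the rest of each chromosome, with 95% Wilson intervals as bars. In each window *abo4* stands above *mms19-1* and *mms19-1* above Col, for example at 24.3%, 16.3% and 7.37% on chromosome 3.

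The share of pseudogenes above 0 also varied along the windows. When the loci of each window were divided by order into 5 equal parts, 14.4%, 8.02%, 9.47%, 9.59% and 13.4% of pseudogenes were above 0 in Col from the lowest to the highest numbers, so that the 3 inner parts had fewer than the 2 outer ones. In *mms19-1* the shares were 21.4%, 16.5%, 19.3%, 18.8% and 17.0%, and in *abo4* they were 28.9%, 27.2%, 23.7%, 26.7% and 20.5%. The inner parts were also the richest in pseudogenes, with 79.5%, 79.8% and 76.8% of their loci in this class against 65.6% and 55.3% in the outer parts. These shares are descriptions of single libraries, and the difference in pattern was not tested.

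Loci listed at 0 in one library and above 0 in the other were then counted for each mutant. A value appeared at 275 members in *mms19-1* that were at 0 in Col, while 110 members above 0 in Col were at 0 in *mms19-1*. Over the whole table these classes hold 3.04% and 2.22% of loci. In *abo4* a value appeared at 434 members at 0 in Col and was lost at 94, against 3.97% and 2.17% of all loci. These shares are not a like background, because a value can appear only where Col is at 0. That held for 2435 of 3052 members and for 6258 of 30228 loci on the arms. Of those 6258 loci, a value appeared at 745 in *mms19-1* and at 898 in *abo4*. Relative to the loci at 0 in Col, values in *mms19-1* appeared no more often at members (275 of 2435) than on the arms (745 of 6258). In *abo4* they appeared somewhat more often at members (434 of 2435) than on the arms (898 of 6258). Of the 617 members and 23970 arm loci above 0 in Col, 110 and 635 were lost in *mms19-1* and 94 and 635 in *abo4*. Losses were thus also more frequent among members than on the arms. The 2 comparisons share the Col library, so a locus that Col missed by chance counts in both. Nearly all of the imbalance between members that appeared and members lost lay in the pseudogenes. There, 244 appeared and 72 were lost in *mms19-1*, and 382 appeared and 58 were lost in *abo4*. Protein-coding genes of the windows gave 24 and 22 in *mms19-1* and 29 and 24 in *abo4*, and transcribed pseudogenes gave 7 and 15, and 19 and 12. Pseudogenes on the arms gave 128 and 95 in *mms19-1* and 227 and 84 in *abo4*.

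Most of these loci rest on very few reads. Of the 244 pseudogenes that appeared in *mms19-1*, 136 had 1 read, 48 had 2, 56 had 3 to 9 and 4 had 10 or more. Of the 382 that appeared in *abo4*, 198 had 1 read, 73 had 2, 92 had 3 to 9 and 19 had 10 or more. In the reverse direction, 9 of 72 in the *mms19-1* comparison and 5 of 58 in that of *abo4* had 3 reads or more in Col, and none reached 10. For each chromosome and mutant, the locus at 0 in Col with the most reads in the mutant was picked out. On chromosome 1 it was AT1G38360, an Athila retrotransposon of the gypsy class, with 30 reads in *mms19-1* and 43 in *abo4*. On chromosome 3 it was AT3G42431, also Athila, with 9 and 14 reads. On chromosome 4 AT4G07942, similar to the second open reading frame of Athila, had 9 and 22 reads. On chromosome 5 AT5G29975, Athila again, had 8 and 12 reads, and AT5G33389 had 1 and 14. On chromosome 2 AT2G10285 had 1 read in *mms19-1* and 13 in *abo4*, and the leading locus in *mms19-1* was AT2G11778, a short protein-coding gene with 6 and 2 reads. On chromosome 4 AT4G07408, a short protein-coding gene, had 19 reads in *mms19-1* and was listed at 0 in *abo4* and in Col. Its annotated span overlaps the gene AT4G07410, so its reads may come from that gene.

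**Figure D2:**
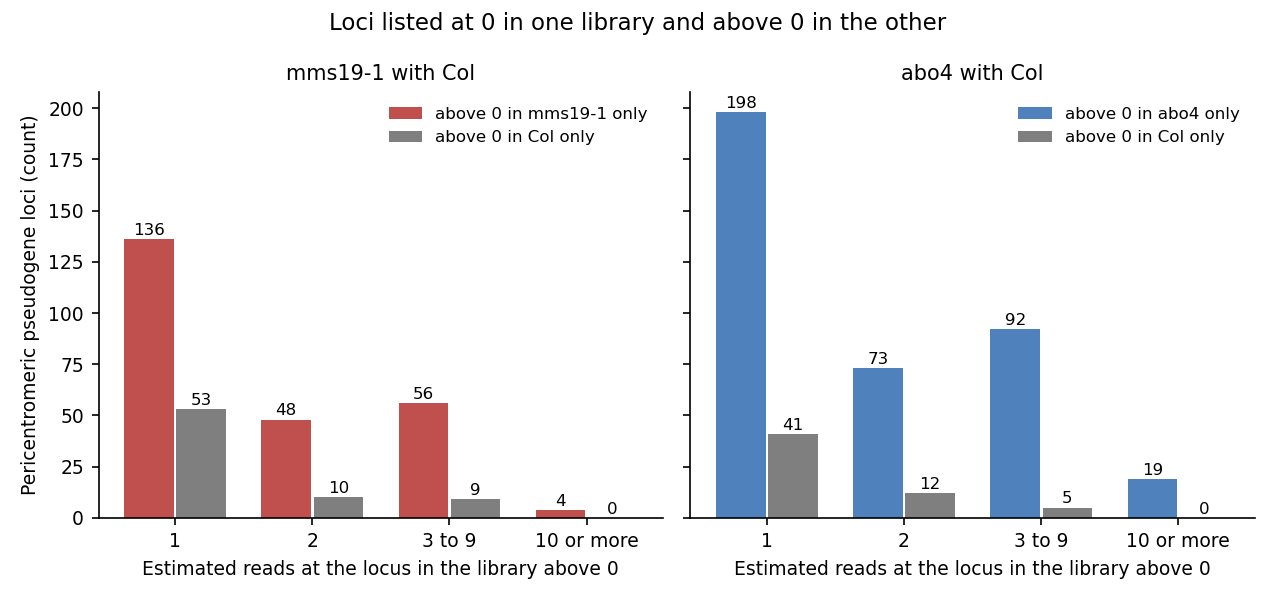
Number of pericentromeric pseudogene loci (y axis) that were above 0 in a mutant and at 0 in Col, or the reverse, by the estimated reads at the locus in the library above 0 (x axis), for *mms19-1* and *abo4*. Loci with 3 to 9 reads number 56 in *mms19-1* against 9 in Col, and 92 in *abo4* against 5 in Col.

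Short stretches of the Athila loci are identical, so their reads are not fully independent. AT1G38360 and AT4G07942 share 60 of the 45-base stretches that a read could cover, which is 0.718% of those of AT1G38360 and 1.97% of those of AT4G07942, and AT1G38360 and AT3G42431 share 59. AT4G06615 and AT4G06718 share 84 stretches, 8.45% and 7.81% of their lengths. Over the window pseudogenes, a median of 86.8% of such stretches occurred once in the genome, against 93.5% on the arms. Of the 342 loci in which under 50% were unique, 61 were above 0 in *mms19-1*, 82 in *abo4* and 21 in Col. Of the 742 loci with 95% or more unique stretches, 100 were above 0 in *mms19-1*, 131 in *abo4* and 73 in Col, with 48 appearing and 21 lost in *mms19-1* and 81 and 23 in *abo4*. Of the 1095 loci with 50 to 95% unique stretches, 244, 344 and 139 were above 0 in *mms19-1*, *abo4* and Col. More loci were thus above 0 in the mutants than in Col in each class, but the gap was narrowest at 95% or more. The shares were 17.8%, 24.0% and 6.14% in the class under 50%, and 22.3%, 31.4% and 12.7% at 50 to 95%. At 95% or more they were 13.5%, 17.7% and 9.84%. Pseudogenes of the arms with 95% or more unique stretches gave 26.3%, 32.6% and 24.3%, so in *abo4* the gap to Col was about as wide as in the windows.

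Summed over all pseudogenes, the reads relative to depth were below Col in both mutants, and over the weakly transcribed ones they were above Col. Over all 2179 pseudogenes there were 19229 estimated reads in *mms19-1*, 17787 in *abo4* and 23177 in Col, which relative to depth gives a ratio to Col of 0.906 for *mms19-1* (0.889 to 0.923) and of 0.867 for *abo4* (0.850 to 0.884). AT2G11240 alone held 46.6%, 42.9% and 54.7% of these reads, at 29.7 FPKM in *mms19-1*, 26.2 FPKM in *abo4* and 38.6 FPKM in Col. Without this locus both ratios were above 1. Without the 5 loci with the most reads the ratios were 1.23 (1.18 to 1.28) in *mms19-1* and 1.38 (1.33 to 1.44) in *abo4*. The pseudogene with the highest mean FPKM on each chromosome was transcribed in Col too. SADHU1-1 (AT2G10410), a non-coding retrotransposon, had 45.1, 47.2 and 51.7 FPKM in *mms19-1*, *abo4* and Col, and MUG8 (AT5G34853) had 11.4, 9.31 and 11.7 FPKM. AT4G07507 had 5.27, 4.95 and 6.59 FPKM, and AT3G42052 had 1.25, 1.14 and 1.41 FPKM. None of these 4 passed 2-fold, while the highest on chromosome 1, AT1G43590, passed it in both mutants, in opposite directions.

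Over the 2104 pseudogenes with a mean under 0.1 FPKM, 922 reads in *mms19-1*, 1687 in *abo4* and 501 in Col were left. Their ratio to Col was 2.01 in *mms19-1* (1.80 to 2.24) and 3.80 in *abo4* (3.44 to 4.21), against 1.06 and 1.57 over the weakly transcribed pseudogenes of the arms. By chromosome the ratios in *mms19-1* were 3.02, 1.05, 3.33, 2.70 and 1.80 from chromosome 1 to 5, and those in *abo4* were 6.0, 1.84, 5.48, 5.58 and 3.60. On chromosome 2 the interval of *mms19-1* (0.851 to 1.30) included 1. The window of chromosome 2 thus stood apart from the other 4 in this measure, and in Col it also had the most reads of the 5, with 186 over its 329 loci of this kind.

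**Figure D3:**
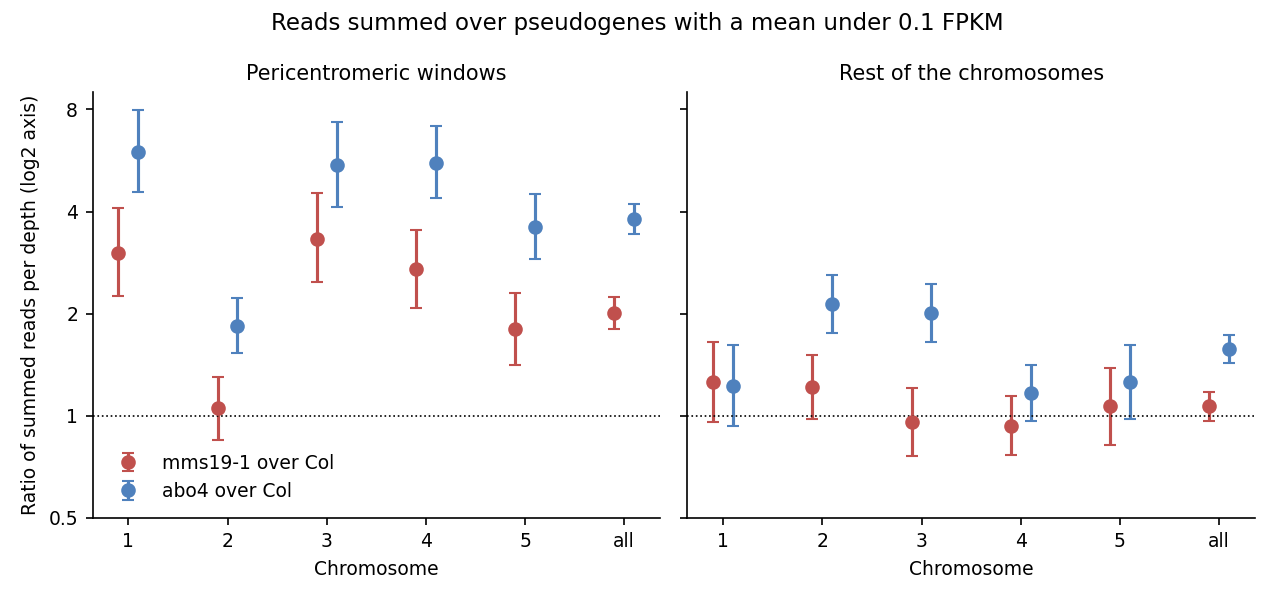
Ratio of estimated reads per depth, mutant over Col (y axis, log2 scale), summed over pseudogenes with a mean under 0.1 FPKM, by chromosome and for all 5 (x axis), for *mms19-1* and *abo4*, with 95% exact intervals for counting error. In the windows the ratios over all chromosomes are 2.01 in *mms19-1* and 3.80 in *abo4*, and chromosome 2 is the lowest with 1.05 and 1.84. A ratio of 1 is the dotted line.

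The level of single members was compared by the log2 ratio of FPKM + 0.1, with a limit of 2-fold. In 1149 members any of the 3 libraries had a value above 0, and a locus that reached this only through the mutant in which it was high could only go up. Of these, 50 (4.35%) were past 2-fold upwards in *mms19-1* and 27 (2.35%) downwards, against 2.38% and 1.64% of all loci of the table. In *abo4* 97 (8.44%) were higher and 28 (2.44%) lower, against 3.87% and 2.58% of all loci, so that the share of lower members in *abo4* was near that of the whole table. The median log2 ratio of the members was 0.00 in *mms19-1* and 0.08 in *abo4*, against -0.01 and 0.00 over all loci, and that of *abo4* was -0.07 among members with a mean of at least 0.1 FPKM. Among the pseudogenes, 36 were higher and 8 lower in *mms19-1*, and 62 higher and 5 lower in *abo4*, while the pseudogenes of the arms gave 17 and 23 in *mms19-1* and 31 and 19 in *abo4*. Of 364 protein-coding members above 0, 13 (3.57%) were higher and 14 (3.85%) lower in *mms19-1*, and 26 (7.14%) and 18 (4.95%) in *abo4*. Over the protein-coding genes of the arms these shares were 2.04% and 1.23% in *mms19-1*, and 3.34% and 2.20% in *abo4*.

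Several of the highest ratios rest on 1 read at a very short locus. AT5G35605, a tRNA gene, was listed at 59.1 FPKM in *abo4*, which is 1 read, and at 0 in the other libraries. MIR396a and MIR396b, precursors of a microRNA that restrains leaf growth factors, had 1 read each in *abo4*. AT2G11773 and AT5G28491 had 1 read each in *mms19-1*. With at least 10 estimated reads in a mutant and Col together, 14 of 384 members (3.65%) were higher and 18 (4.69%) lower in *mms19-1*, against 1.57% and 1.04% of all loci with such reads. In *abo4* 41 of 415 members (9.88%) were higher and 18 (4.34%) lower, against 3.1% and 2.05%. Of the members so counted, 11 and 5 in *mms19-1* and 26 and 4 in *abo4* were pseudogenes, at 36 different loci, and 1 of the 11 and 9 of the 26 were listed at 0 in Col. A locus with few reads in Col reached 10 reads only through the mutant and could then pass 2-fold only upwards. The shares of higher members thus depend in part on this limit, and those of all loci are not a like background.

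Retrotransposons of the Athila family, large gypsy-class elements that accumulate around the centromeres, made up 8 of the 26 higher pseudogenes in *abo4* and 1 of the 11 in *mms19-1*. The family is known here only where the study's gene tables describe the locus and is not given for 14 of the 26 and 8 of the 11, and the share of Athila among all window pseudogenes is not known here, so these counts have no background to be read against. AT2G11340 (chr2:4514861-4520662) had 44 reads in *mms19-1*, 74 in *abo4* and 3 in Col. AT1G40077 had 18 reads in *mms19-1*, 46 in *abo4* and 1 in Col, and AT4G06506 had 11, 31 and 1. AT2G09870 had 22 reads in *mms19-1*, 44 in *abo4* and 3 in Col, and AT1G36540 had 8, 22 and 1. These loci were taken from those past 2-fold upwards in *abo4*, so that *abo4* above Col follows from the choice, and *mms19-1* held fewer reads than *abo4* at each.

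Loci of other families were past 2-fold upwards or downwards. The CACTA element AT1G36630 (chr1:13840145-13847625) had 99 reads in *mms19-1*, 87 in *abo4* and 1 in Col. The CACTA element AT5G33395 had 25 reads in *abo4*, against 2 in *mms19-1* and 2 in Col. The copia-like retrotransposon AT5G35935 (chr5:14083388-14089891) had 795 reads in *mms19-1*, 130 in *abo4* and 114 in Col, which is 7.61 times Col in *mms19-1* (6.25 to 9.35) and 1.29 times in *abo4* (0.994 to 1.67). It gave the most additional reads of any pseudogene in *mms19-1*. The gypsy-like AT3G32895 (chr3:13431016-13435542) went the other way, with 123 reads in *mms19-1*, 31 in *abo4* and 155 in Col, and its ratio in *abo4* was 0.226 (0.148 to 0.334). AT2G12440, similar to a reverse transcriptase, had 24, 10 and 63 reads. AT1G43590 (chr1:16414121-16414627) was past 2-fold downwards in *mms19-1* and upwards in *abo4*, with 0.128 FPKM (2 reads) in *mms19-1*, 7.84 FPKM (118 reads) in *abo4* and 2.06 FPKM (35 reads) in Col. The ratios were 0.0624 (0.00727 to 0.243) in *mms19-1* and 3.81 (2.59 to 5.72) in *abo4*.

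**Figure D4:**
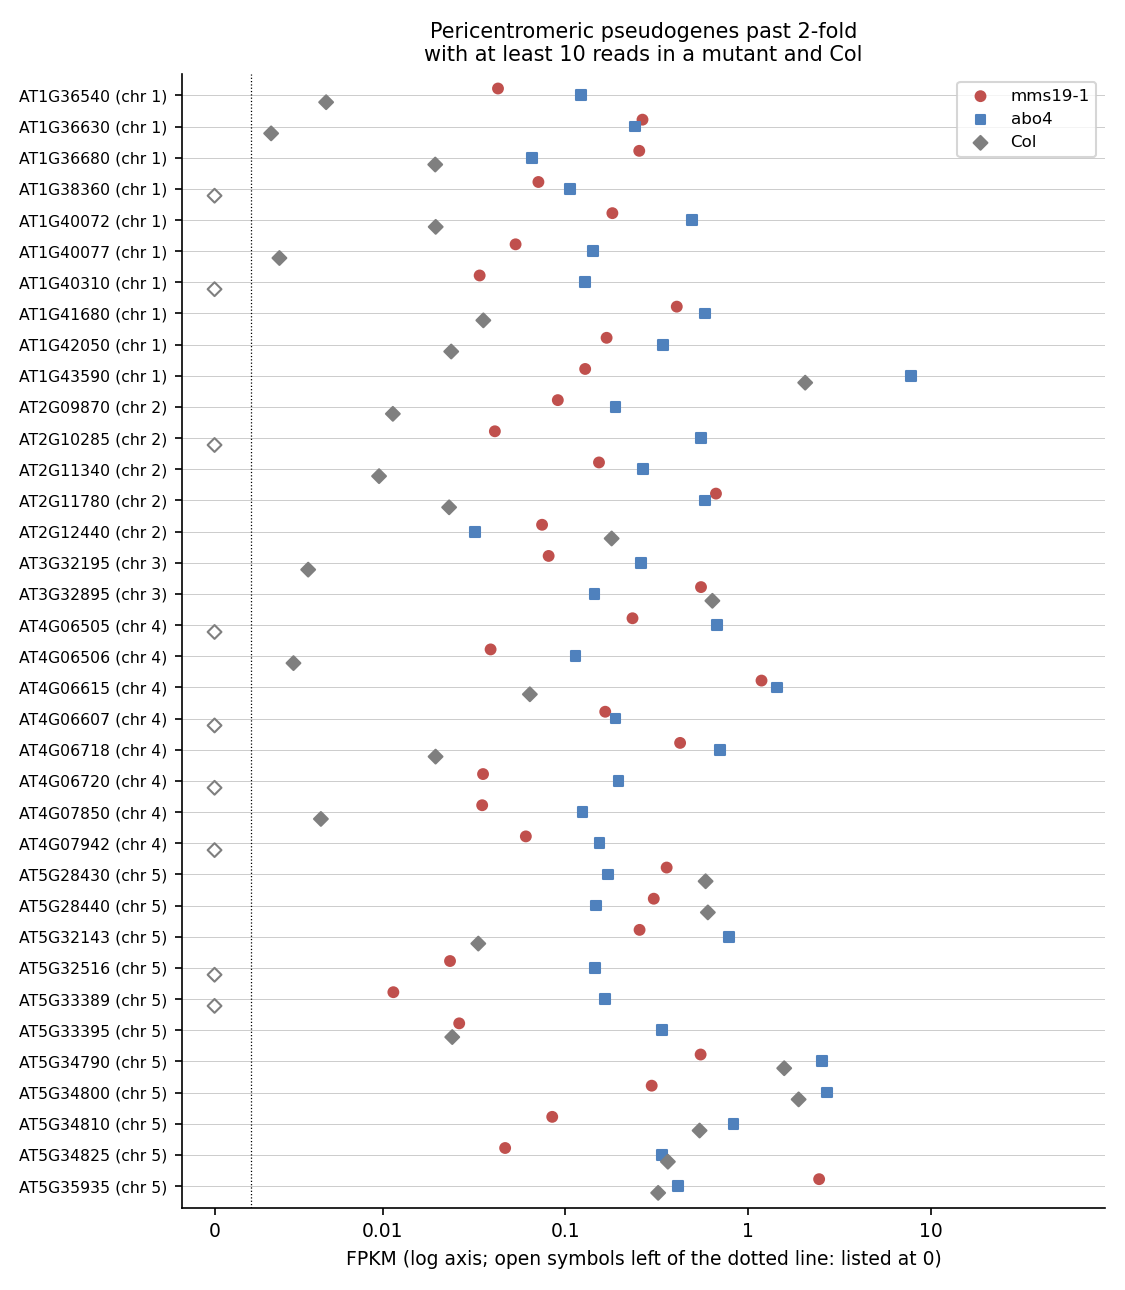
FPKM (x axis, log scale) of the 36 pericentromeric pseudogenes past 2-fold with at least 10 estimated reads in a mutant and Col together (y axis, in chromosome order), in *mms19-1* (circles), *abo4* (squares) and Col (diamonds). Open symbols left of the dotted line are values listed at 0. Most Col values lie left of both mutants, as at AT2G11780 with 0.669, 0.581 and 0.0231 FPKM, while AT5G34790 to AT5G34825 have the lowest value in *mms19-1*. The loci were chosen as past 2-fold, mostly upwards, so Col below the mutant that passed the limit follows from the choice.

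Some of these loci were neighbours. Among loci with at least 5 estimated reads in a mutant and Col together, runs of 3 or more consecutive loci past 2-fold in the same direction, by reads per depth, were collected. The windows held 470 such loci in the *mms19-1* comparison, with 6 runs higher and 1 lower, and the arms held 22880 loci, with 2 runs higher and 1 lower. In *abo4* the windows held 529 loci with 13 runs higher and 1 lower, and the arms 22976 loci with 16 higher and 4 lower. A locus with at most 1 read in Col reached 5 reads only through the mutant and could then only be higher. The counts of higher runs in the windows thus depend in part on this limit. The rule was set after the values had been seen, and the runs are given as descriptions.

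The longest run lay across the middle of chromosome 1. From AT1G38360 to AT1G41680 (chr1:14437603-15484057), 12 consecutive pseudogenes with 5 reads or more were higher in *abo4*, with 122 reads in *mms19-1*, 256 in *abo4* and 7 in Col summed over the 12. AT1G40101, an Athila locus of 12954 nt, had 21 reads in *mms19-1*, 50 in *abo4* and 1 in Col, and AT1G40072, without a family, had 17, 45 and 2. No 45-base stretch of AT1G40072 or AT1G40077 occurs only once in the genome, so their reads could also come from another copy. AT1G40121 was listed at 0 in *mms19-1* and in Col and had 6 reads in *abo4*. The interval of 1046 kb held 95 annotated loci, of which 16 were above 0 in *mms19-1*, 22 in *abo4* and 8 in Col. On chromosome 4, the run of AT4G06564 to AT4G06588 (chr4:3497432-3603301), which includes the TSI locus AT4G06578, had 30 reads in *mms19-1* and 66 in *abo4* over 6 loci that were all listed at 0 in Col. The run of AT4G06505 to AT4G06615, 110.6 kb long, had 72 reads in *mms19-1*, 109 in *abo4* and 5 in Col over 4 loci. On chromosome 2, AT2G10250, AT2G10280 and AT2G10285 had 6 reads in *mms19-1*, 31 in *abo4* and none in Col.

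A run of 7 consecutive loci on chromosome 5, AT5G34790 to AT5G34830 (chr5:12966080-12982497, 16.4 kb), was lower in *mms19-1*. Over the 7 there were 105 reads in *mms19-1*, 690 in *abo4* and 539 in Col, and every locus of the interval belonged to the run. AT5G34800 had 0.297 FPKM in *mms19-1*, 2.72 in *abo4* and 1.90 in Col, a log2 ratio of -2.33 in *mms19-1* and 0.50 in *abo4*. AT5G34790, a CACTA element, had 0.551, 2.54 and 1.58 FPKM, and the Mutator-like AT5G34825 had 0.0468, 0.339 and 0.365 FPKM. AT5G34795, a transcribed pseudogene between them, had 0.222, 1.98 and 1.37 FPKM, and AT5G34830, a protein-coding gene at the end of the run, had 1 read in *mms19-1*, 7 in *abo4* and 9 in Col. Over the 7 loci the log2 ratios lay between -2.33 and -1.37 in *mms19-1* and between -0.16 and 0.65 in *abo4*. In *abo4* a run of AT5G28420, AT5G28430 and AT5G28440 was lower, with 38 reads in *mms19-1*, 21 in *abo4* and 82 in Col.

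**Figure D5:**
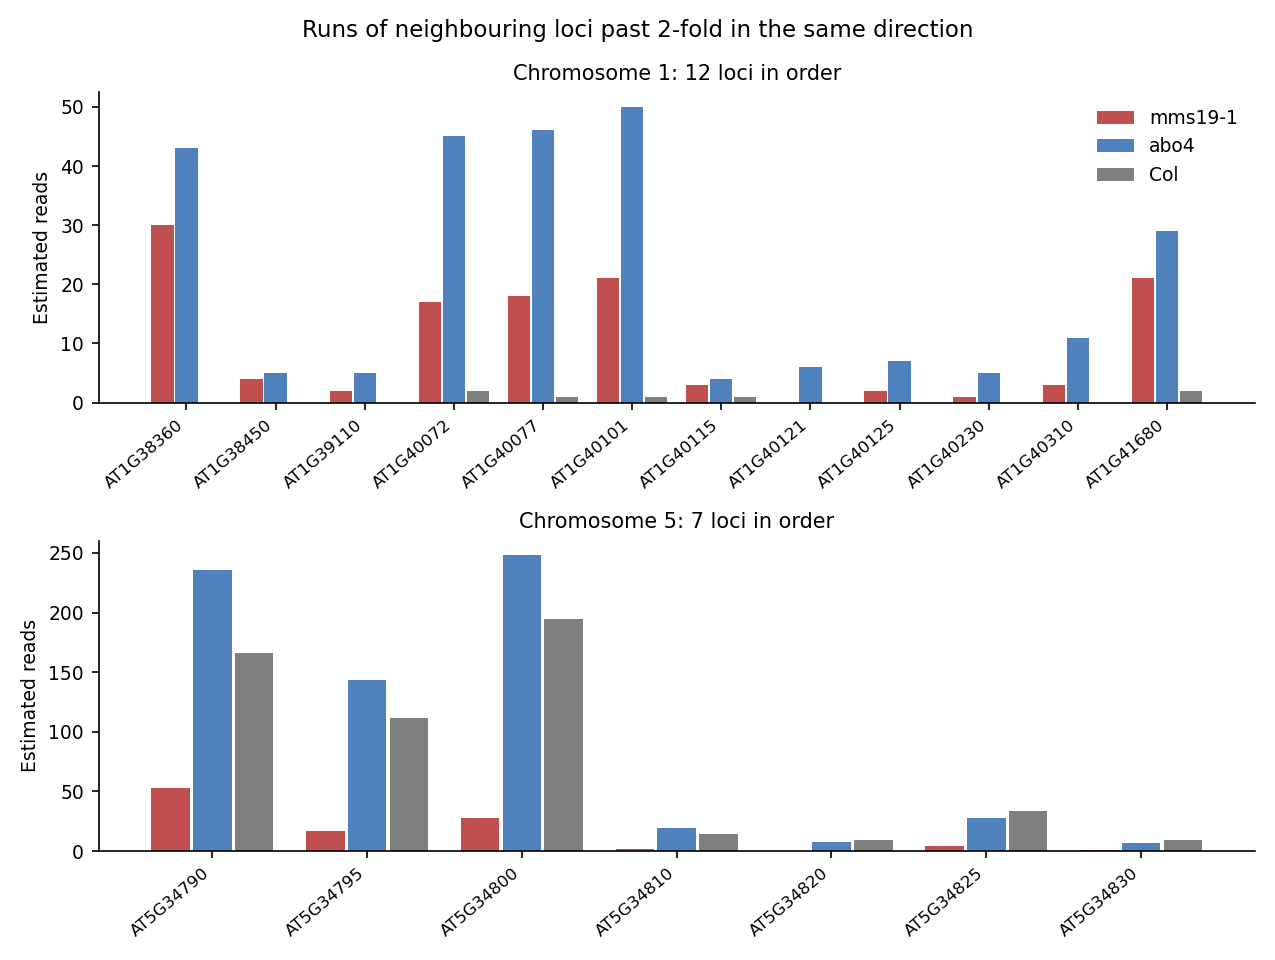
Estimated reads (y axis) at the loci of 2 runs in chromosome order (x axis), in *mms19-1*, *abo4* and Col. On chromosome 1 the 12 loci from AT1G38360 to AT1G41680 hold 122, 256 and 7 reads, and on chromosome 5 the 7 loci from AT5G34790 to AT5G34830 hold 105, 690 and 539.

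Of 38 genes of known function in the windows, 0 passed 2-fold upwards in *mms19-1* and 3 (7.89%) downwards, against 2.38% and 1.64% of all loci. In *abo4* 4 (10.5%) were higher and 0 lower, against 3.87% and 2.58% of all loci. Their median log2 ratio was 0.00 in *mms19-1* and -0.05 in *abo4*, and all 38 were above 0. The highest were genes of primary metabolism. GAPB, a subunit of the chloroplast glyceraldehyde-3-phosphate dehydrogenase, had 713, 656 and 684 FPKM in *mms19-1*, *abo4* and Col. AGT, an aminotransferase of photorespiration, had 894, 600.4 and 668 FPKM, GS2, the plastid glutamine synthetase, had 889, 738 and 710.2 FPKM, and NIA2, the main nitrate reductase, had 309.9, 263 and 317 FPKM. Among regulators, BZO2H3, a bZIP transcription factor, was the highest with 40.1, 32.7 and 37.5 FPKM, and among signalling genes the phytochrome PHYC had 11.5, 9.87 and 12 FPKM. Of the remaining genes RP1, a ribosomal protein, had 359, 343 and 321 FPKM. DAYSLEEPER, a gene derived from a hAT transposase that plants need for development, had 28.2, 27 and 30.6 FPKM.

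The 3 genes lower in *mms19-1* were QQS, WNK9 and CYP716A2. QQS (AT3G30720), a gene found in no other genus that lowers starch content and whose expression is known to vary with DNA methylation at its locus, had 0.815 FPKM in *mms19-1*, 5.32 in *abo4* and 5.79 in Col. Its ratio to Col by reads was 0.140 in *mms19-1* (0.0832 to 0.224) and 0.919 in *abo4* (0.721 to 1.17). WNK9, a protein kinase, had 0.0554, 0.344 and 0.635 FPKM, and CYP716A2, a cytochrome P450 of triterpene metabolism, had 0.233, 0.775 and 0.829 FPKM. CYP716A2 has a close copy nearby, CYP716A1, with 0.807, 0.818 and 0.507 FPKM, and reads of the 2 may be divided between them.

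The 4 genes higher in *abo4* were ACC2, ERD5, LSH1 and AGL79. ACC2, the plastid form of acetyl-CoA carboxylase, had 2.33 FPKM in *mms19-1*, 4.78 in *abo4* and 2.18 in Col, while its neighbour and close copy ACC1, the cytosolic form, had 37.9, 31.5 and 38.2 FPKM. ERD5, the mitochondrial proline dehydrogenase, had 14.4, 19.7 and 8.75 FPKM, a log2 ratio of 0.71 in *mms19-1* and 1.16 in *abo4*. LSH1, a nuclear protein of seedling light responses, had 18.3, 34.4 and 17.1 FPKM and was just past the limit in *abo4* with a log2 ratio of 1.00. AGL79, a MADS-box factor, had 2, 20 and 6 reads.

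Outside this list, the protein-coding gene furthest below Col was AT5G33370, a GDSL-type lipase gene of chromosome 5 (chr5:12602468-12604832), with 15.4 FPKM in *mms19-1*, 0.252 FPKM in *abo4* and 11.5 FPKM in Col. In *abo4* this was 17 estimated reads against 882, a ratio of 0.0218 (0.0126 to 0.0350), while *mms19-1* stood at 1.34 times Col (1.22 to 1.46). Its last bases overlap the annotated pseudogene AT5G33365, which was listed at 0 in all 3 libraries. AT3G33528, of unknown function, had 0.540 FPKM (26 reads) in Col and was listed at 0 in both mutants. AT5G35510 had 8.63 estimated reads in *mms19-1* and 17.3 in Col and was listed at 0 in *abo4*, and AT5G36280 had 2.47 in *abo4* and 7.40 in Col and was listed at 0 in *mms19-1*.

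Genes that act in silencing, or against it, lie elsewhere in the genome and were read for comparison. Of 26 such genes, 1 (3.85%) passed 2-fold upwards in *mms19-1*, against 2.38% of all loci, and 2 (7.69%) did in *abo4*, against 3.87%, while 0 did so downwards. The 1 was ROS1, a DNA demethylase that counteracts silencing, with 58.6 FPKM in *mms19-1*, 21.7 in *abo4* and 27.5 in Col. The 2 in *abo4* were VIM1 and VIM3, which bind methylated DNA and keep CG methylation, with 14.2, 30.3 and 13.2 FPKM and with 5.14, 9.997 and 4.64 FPKM. These levels differed between the same 3 libraries, and their part in the levels of the pericentromeric loci was not tested.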

How the data were processed

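The authors aligned 45-bp reads to TAIR10 with TopHat2 2.0.12 and Bowtie, allowing up to 2 mismatches, computed FPKM with Cufflinks 2.0.1 and Cuffdiff, and deposited these FPKM values of 3 libraries in 1 table of 34133 rows. The treatment of multiply aligned reads is not given in the sources used here. Of several rows of a locus the row with the larger mean was kept, which left out 574 rows, 269 of them of members. Members, lists and limits were chosen with earlier results of these data known. The named loci were those of the primer list, the 6 highest and 6 lowest ratios per mutant among members with a mean of at least 0.1 FPKM, per chromosome the highest pseudogene and the locus at 0 in Col with most reads, and genes of known function past 2-fold or highest in their role. The families, the runs and the 36 pseudogenes with at least 10 reads were chosen after their values were seen.

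Positions came from RefSeq's annotation of TAIR10.1, and all 112 compared table positions overlapped it. Estimated reads are FPKM times effective length (fragments of 200 ± 80 nt, at least 49 nt) times library size. Of the values of 0.5 to 20 reads at window pseudogenes, 98.3%, 97.4% and 96.5% in *mms19-1*, *abo4* and Col came out within 0.05 of a whole number, and 60.9%, 67.7% and 52.7% at protein-coding members, where estimates are less exact. No length was found for 55 members, and 134 members overlap another gene. Ratios used log2(FPKM + 0.1), which understates changes at low values. Python 3.11.15, numpy 2.4.6, pandas 2.3.3, scipy 1.17.1 and matplotlib 3.10.9 were used. The calculation was tested on simulated data in which changes were set only at loci with many more reads than most loci here. That test does not cover changes at loci with few reads. Alternatives were other pseudocounts and filters, a 4-fold limit, centring, summed rows, inner loci and unique loci. The amplified sequence of 1 primer pair is not reported here.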

Additional observations from a re-analysis of the deposited data

How the results depend on the processing

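No paired analysis was possible because each genotype has 1 library, and for the same reason no library could be left out. Results follow as *mms19-1*, *abo4* and, where given, Col. The share of members above 0 was 25.6%, 31.4% and 20.2%. It was 21.7%, 28.5% and 13.6% for the inner loci of each window by order, 15.8%, 18.1% and 14.0% with at least 3 reads, 14.9%, 17.1% and 13.6% with at least 0.05 FPKM, and 18.6%, 25.6% and 10.7% for pseudogenes. The order of the libraries was the same each time. Members that appeared and those lost in *mms19-1* numbered 275 and 110 as reported, 163 and 40 for the inner loci, 109 and 54 with 3 reads, 83 and 43 with 0.05 FPKM, and 244 and 72 for pseudogenes. In *abo4* they numbered 434 and 94, 258 and 31, 170 and 44, 151 and 43, and 382 and 58 in the same order. Members past 2-fold depended most on the pseudocount. In *mms19-1*, 50 were higher and 27 lower, with 251 and 103 at 0.01 FPKM added and 7 and 6 at 1 FPKM. There were 32 and 22 with a mean of at least 0.1 FPKM, 13 and 11 at a 4-fold limit, 31 and 8 for the inner loci, 36 and 8 for pseudogenes, and 14 and 18 with at least 10 reads. In *abo4*, 97 were higher and 28 lower, with 392 and 90, 8 and 5, 54 and 22, 24 and 4, 52 and 6, 62 and 5, and 41 and 18 in the same order. At 1 FPKM added the calls in the 2 directions were thus near equal, and with at least 10 reads more members were lower than higher in *mms19-1*. The median log2 ratio of *mms19-1*, 0.00, was -0.0077 with a mean of at least 0.1 FPKM and 0.0215 when centred. That of *abo4*, 0.08, was 0.318 at 0.01 FPKM, 0.0103 at 1 FPKM, 0.132 for the inner loci and 0.132 for pseudogenes. It turned negative, to -0.0650, with a mean of at least 0.1 FPKM. The summed reads of pseudogenes relative to Col, 0.906 and 0.867, were 0.848 and 0.805 for the inner loci, and in *abo4* 0.848 at loci with mostly unique stretches. They turned above 1 without AT2G11240 (1.07 and 1.09), without the 5 loci with most reads (1.23 and 1.38) and with a mean under 0.1 FPKM (2.01 and 3.80). Leaving out AT2G11240 alone thus changed the direction of the sum. The minimum of 10 reads, leaving out AT2G11240 and the limit under 0.1 FPKM were added after seeing the data. Summing the rows of a locus moved no value past its limit. With 1 library per genotype, spread between seedlings is unknown, and at 1 to 3 reads a single locus cannot show a difference.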
